A study of Mus musculus with 17 samples.

Results

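The genes described here are 9 genes of glucose production and glycogen handling in the liver: G6pc, Slc37a4, Fbp1, Pck1, Pck2, Pcx, Gys2, Pygl and Ppargc1a. They were found by name in the gene annotation of the arrays, where 11 probes of 32305 kept probes carried them, and all 9 were among the 25977 genes tested. Gys2 and Ppargc1a had 2 probes each, and for each the brighter probe by mean level was used, with the other given beside it. Labelled RNA of 5 groups of mouse liver cells was measured on 17 single-colour Agilent arrays. The groups were adult hepatic progenitors differentiated in vitro towards hepatocytes (hepatocyte condition, 4 arrays), progenitors differentiated in vitro towards cholangiocytes, the epithelial cells of the bile duct (cholangiocyte condition, 3 arrays), primary hepatocytes (4 arrays), primary cholangiocytes (2 arrays, numbered 3 and 4) and undifferentiated progenitors (4 arrays). All came from Foxl1-CRE; RosaYFP mice, in which Cre under the control of Foxl1 switches on a yellow fluorescent reporter, and the offspring used were 6 to 10 weeks old. The labels do not say whether arrays of a group hold separate animals or cultures, nor how long the cells were differentiated, so the spread behind each p-value is that among these arrays and may be technical. Every level below is on a log2 scale on which 0 is the 75th percentile intensity of the array, and levels are compared between groups for 1 probe at a time.

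Gluconeogenesis is the synthesis of glucose from lactate, amino acids and glycerol, and hepatocytes carry out most of it during fasting. Pyruvate carboxylase and phosphoenolpyruvate carboxykinase bypass the last step of glycolysis, fructose 1,6-bisphosphatase bypasses phosphofructokinase, and glucose 6-phosphatase with its transporter releases free glucose, also from glycogen. Hepatocytes use liver forms of glycogen synthase and glycogen phosphorylase, and the fasting signals glucagon and glucocorticoid raise several of these genes through CREB, FOXO1 and the coactivator that Ppargc1a encodes.

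The arrays lay on 5 slides, and each slide held arrays of more than 1 group. The 75th percentile intensity lay between 544 and 983 on the arrays of primary hepatocytes and reached 2848 elsewhere, and 23816 to 29152 probes per array were well above background. A list of 10 hepatocyte markers, all tested, was high in primary hepatocytes, with mean levels of 8.02 to 8.54. In the hepatocyte condition the mean of this list was 4.72, -1.11, 4.34 and -1.31 on arrays 1 to 4, and in undifferentiated progenitors it was 0.69, 0.09, -2.30 and -4.32. Alb, which encodes serum albumin, stood at 7.63, -4.75, 7.58 and -3.65 in the hepatocyte condition, so that arrays 1 and 3 stood apart from arrays 2 and 4. The undifferentiated progenitors also differed among themselves, with Alb at 6.00, 1.26, -4.44 and -8.74. Summed linear levels of 8 cholangiocyte markers were 99.2 to 126 in the hepatocyte condition and 0.547 to 1.11 in primary hepatocytes. They were 127 to 198 in undifferentiated progenitors and 157 to 230 in primary cholangiocytes. The mean log2 levels of this list overlapped, at 0.64 to 1.17 in the hepatocyte condition and 0.90 to 1.35 in undifferentiated progenitors. Between these groups 1 of the 8 markers was lower in the hepatocyte condition and 7 did not pass. Summed linear levels of endothelial, leukocyte and red blood cell markers were higher in primary hepatocytes than elsewhere. Those of 5 endothelial markers were 7.71 to 12.0 in primary hepatocytes and at most 2.78 on any other array. Those of 8 leukocyte and Kupffer cell markers were 7.14 to 12.0 and at most 3.63. Those of the 2 tested red blood cell markers of 4 were 14.3 to 20.4 and at most 0.0471. Single leukocyte and Kupffer cell markers did not all go this way. Of the 8, 7 were lower and 1 was higher in the hepatocyte condition than in primary hepatocytes. Between primary hepatocytes and primary cholangiocytes 3 were higher, 1 was lower and 4 did not pass. The summed level of the 5 tested stellate cell and fibroblast markers of 6 was 1.31 on array 2 of the hepatocyte condition and 0.131 to 0.156 on its other 3 arrays. It was 0.207 to 0.345 in primary hepatocytes, 0.725 and 0.134 in primary cholangiocytes and 0.0850 to 0.126 in undifferentiated progenitors, so that array 2 of the hepatocyte condition was the highest of these. The part of these markers in the results below was not tested. In RNA from a bulk of cells, fewer cells of a type and less RNA per cell cannot be told apart.

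The promoters of 8 of the 9 genes were read from RefSeq (GRCm38.p6), each from 250 bases before to 50 bases after the start site. Searched on both strands, the motif TGACG, whose reverse complement reads CGTCA, lay in promoters of Pck1, Pygl, Ppargc1a and Slc37a4. The motif is a part of a cAMP response element, and it lay in 20.8% of all 32851 promoters of 300 bases. Its first base was 90 bases before the start in Pck1, 44 in Pygl, 49 in Ppargc1a and 61 in a first promoter of Slc37a4, whose second promoter held it at 214 and 82 bases. These 2 windows overlap, and the match at 61 bases in the first and that at 214 in the second are 1 genomic site. The third listed promoter of Slc37a4 held 0 matches. No promoter of G6pc, Pck2, Fbp1 or Pcx held these letters, and the forkhead core GTAAACA, searched likewise on both strands and present in 3.65% of all promoters, was found in none of the 8 genes. Only these exact letters were searched, so variant forms of either site were not counted. The promoters of G6pc (chr11:101367466-101367765, plus strand), Pck1 (chr2:173152823-173153122, plus strand), Pygl (chr12:70227634-70227933, minus strand) and Ppargc1a (chr5:51567676-51567975, minus strand) are shown because these genes behaved differently in the hepatocyte condition, as given below. Capitals mark the motif, and a match is a description of the letters only.
G6pc: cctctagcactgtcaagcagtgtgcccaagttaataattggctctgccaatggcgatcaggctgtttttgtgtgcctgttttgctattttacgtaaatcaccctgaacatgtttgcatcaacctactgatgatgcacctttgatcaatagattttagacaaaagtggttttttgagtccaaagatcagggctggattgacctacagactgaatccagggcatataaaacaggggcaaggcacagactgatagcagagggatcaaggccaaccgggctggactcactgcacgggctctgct
Pck1: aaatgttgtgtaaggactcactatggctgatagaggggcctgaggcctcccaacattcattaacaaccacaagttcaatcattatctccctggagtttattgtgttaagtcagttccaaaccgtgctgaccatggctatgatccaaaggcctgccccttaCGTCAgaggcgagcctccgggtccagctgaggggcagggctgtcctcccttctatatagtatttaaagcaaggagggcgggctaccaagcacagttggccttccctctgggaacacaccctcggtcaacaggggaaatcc
Pygl: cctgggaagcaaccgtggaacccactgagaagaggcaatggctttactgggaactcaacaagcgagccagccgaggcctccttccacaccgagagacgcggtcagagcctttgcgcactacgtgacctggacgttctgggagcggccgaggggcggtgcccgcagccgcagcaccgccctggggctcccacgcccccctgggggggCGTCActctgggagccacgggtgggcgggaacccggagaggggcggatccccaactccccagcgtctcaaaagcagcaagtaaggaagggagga
Ppargc1a: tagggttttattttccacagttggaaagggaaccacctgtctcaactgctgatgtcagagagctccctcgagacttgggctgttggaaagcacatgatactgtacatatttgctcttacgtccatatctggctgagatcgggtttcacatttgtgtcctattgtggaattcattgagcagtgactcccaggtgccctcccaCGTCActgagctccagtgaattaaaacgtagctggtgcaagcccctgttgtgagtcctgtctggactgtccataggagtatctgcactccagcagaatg

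G6pc and Slc37a4, which act in the last step of glucose release, were raised on every array of the hepatocyte condition. G6pc encodes the catalytic subunit of glucose 6-phosphatase, which frees glucose from glucose 6-phosphate, and its probe lies at chr11:101238947-101239006 (mm9, plus strand). G6pc stood at 2.92, -0.52, 2.58 and -3.28 in the hepatocyte condition, at -4.48, -4.18 and -4.51 under the cholangiocyte condition, at 3.21, 5.69, 5.43 and 3.80 in primary hepatocytes, at -4.37 and -4.58 in primary cholangiocytes and at -4.71, -4.46, -4.88 and -6.07 in undifferentiated progenitors. Every array of the hepatocyte condition lay above every array of the cholangiocyte condition and of the undifferentiated progenitors and below every array of primary hepatocytes. The mean level was 0.43 ± 2.92 in the hepatocyte condition and -5.03 ± 0.72 in undifferentiated progenitors (SD, n = 4 each), a difference of 5.46 ± 1.07 (SE), or 43.9-fold, with a limma adjusted p of 0.00378. Against primary hepatocytes (4.53 ± 1.21, SD, n = 4) G6pc was lower by a log2 difference of -4.11 ± 1.07 (SE; adjusted p = 0.0045).

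Slc37a4 encodes the glucose 6-phosphate transporter of the endoplasmic reticulum, which feeds that enzyme, and its probe lies at chr9:44210987-44211045 (mm9, plus strand). Its level was 4.79, 3.71, 4.90 and 3.52 in the hepatocyte condition, 1.86, 1.72 and 1.63 under the cholangiocyte condition, 5.51, 6.05, 5.63 and 6.12 in primary hepatocytes, 1.83 and 0.53 in primary cholangiocytes and 2.26, 1.93, 1.46 and 1.45 in undifferentiated progenitors. The hepatocyte condition overlapped no other group and was the second highest of the 5 groups, and the lower 3 groups overlapped one another. The difference from undifferentiated progenitors was 2.45 ± 0.35 (SE; 5.48-fold, adjusted p = 0.000483) and that from primary hepatocytes was -1.60 ± 0.35 (SE; adjusted p = 0.00134).

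The remaining gluconeogenic enzymes did not all follow G6pc and Slc37a4, nor did they share a single pattern. G6pc and Slc37a4 were also higher on arrays 1 and 3 of the hepatocyte condition than on arrays 2 and 4. For them, however, arrays 2 and 4 still lay above all arrays of undifferentiated progenitors. Fbp1 encodes the liver fructose 1,6-bisphosphatase (probe at chr13:62966175-62966234, mm9, minus strand). Its level was 0.98, -7.24, 0.40 and -8.55 in the hepatocyte condition, -7.99, -7.18 and -5.10 under the cholangiocyte condition, 8.13, 8.14, 8.32 and 8.72 in primary hepatocytes, -5.77 and -4.20 in primary cholangiocytes and -8.72, -6.62, -8.26 and -6.01 in undifferentiated progenitors. Arrays 1 and 3 of the hepatocyte condition stood above all arrays of undifferentiated progenitors, whereas arrays 2 and 4 lay among them. Primary hepatocytes stood above all other arrays.

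Pck1, which encodes the cytosolic phosphoenolpyruvate carboxykinase (probe at chr2:172984307-172984366, mm9, plus strand), divided the hepatocyte condition in the same way. Its level was 0.56, -9.17, 0.61 and -8.18 in the hepatocyte condition, -8.59, -9.14 and -5.05 under the cholangiocyte condition, 6.62, 6.34, 7.30 and 6.77 in primary hepatocytes, -6.91 and -8.30 in primary cholangiocytes and -7.54, -6.87, -8.13 and -9.54 in undifferentiated progenitors. Pck1 was well above background on 2 of 4 arrays of the hepatocyte condition, 1 of 3 of the cholangiocyte condition, 4 of 4 of primary hepatocytes, 1 of 2 of primary cholangiocytes and 1 of 4 of undifferentiated progenitors. The difference between the hepatocyte condition and undifferentiated progenitors did not pass for Pck1 (3.97 ± 1.91, SE; adjusted p = 0.198) or for Fbp1 (3.80 ± 1.76, SE; adjusted p = 0.177). The SD of the 4 arrays of the hepatocyte condition was 5.36 for Pck1 and 4.99 for Fbp1. The SE and adjusted p rest on a spread shared by all groups of the fit, not on these SDs alone. Undifferentiated array 1, with Alb at 6.00, had Fbp1 at -8.72 and Pck1 at -7.54, whereas arrays 1 and 3 of the hepatocyte condition, with Alb at 7.63 and 7.58, had Fbp1 at 0.98 and 0.40. These arrays were less alike over the 10 hepatocyte markers. The mean of that list was 0.69 on undifferentiated array 1 and 4.72 and 4.34 on arrays 1 and 3 of the hepatocyte condition.

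Pck2, the mitochondrial isozyme of the same reaction (10 spots per array, chr14:56168027-56168086, mm9, plus strand), ran the other way. Its level was -2.58, -2.22, -2.78 and -2.23 in the hepatocyte condition, -3.08, -3.19 and -3.15 under the cholangiocyte condition, -4.95, -5.11, -6.63 and -5.78 in primary hepatocytes, -4.01 and -2.90 in primary cholangiocytes and -3.32, -3.08, -2.77 and -2.90 in undifferentiated progenitors. Primary hepatocytes lay below every array of the other groups, and only 2 of their 4 arrays were well above background. The difference between the hepatocyte condition and primary hepatocytes was 3.17 ± 0.33 (SE; adjusted p = 1.68e-06), and it was 0.91 (adjusted p = 0.000944) with a normexp background correction, which lifts dim spots. The lowest level called well above background lay between -6.66 and -5.75 on the arrays of primary hepatocytes. The part of background signal in this level was not tested.

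Pcx encodes pyruvate carboxylase, the mitochondrial enzyme that makes oxaloacetate for gluconeogenesis and for the citric acid cycle (probe at chr19:4621610-4621669, mm9, plus strand). Its level was 2.90, 2.51, 4.47 and 0.98 in the hepatocyte condition, 1.84, 0.23 and 0.32 under the cholangiocyte condition, 6.27, 6.52, 6.37 and 6.49 in primary hepatocytes, 3.62 and 2.41 in primary cholangiocytes and 1.37, -0.12, 0.76 and -1.02 in undifferentiated progenitors. It was well above background on all 17 arrays, and array 4 of the hepatocyte condition lay within the range of undifferentiated progenitors while the other 3 lay above it. The difference was 2.47 ± 0.66 (SE; adjusted p = 0.0208) against undifferentiated progenitors and -3.70 ± 0.66 (SE; adjusted p = 0.000257) against primary hepatocytes.

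The glycogen enzymes followed Fbp1 and Pck1 more than G6pc. Pygl encodes liver glycogen phosphorylase, which releases glucose 1-phosphate from glycogen (probe at chr12:71291855-71291914, mm9, minus strand). Its level was 1.19, -4.06, -0.08 and -4.81 in the hepatocyte condition, -6.64, -5.15 and -6.88 under the cholangiocyte condition, 6.39, 6.54, 6.27 and 6.49 in primary hepatocytes, -4.13 and -2.78 in primary cholangiocytes and -4.79, -4.83, -6.92 and -6.91 in undifferentiated progenitors. Arrays 1 and 3 of the hepatocyte condition were again the high ones, array 2 lay just above all arrays of undifferentiated progenitors and array 4 lay at the upper end of their range. The difference from undifferentiated progenitors was 3.92 ± 1.1 (SE; adjusted p = 0.026) and that from primary hepatocytes was -8.36 ± 1.1 (SE; 329-fold, adjusted p = 1.57e-05).

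Gys2 encodes liver glycogen synthase (probe at chr6:142371157-142371216, mm9, minus strand). Its level was -1.36, -9.58, -3.61 and -6.97 in the hepatocyte condition, -9.40, -9.33 and -9.53 under the cholangiocyte condition, 5.34, 5.69, 5.65 and 5.97 in primary hepatocytes, -9.49 and -8.53 in primary cholangiocytes and -9.10, -9.90, -9.72 and -9.48 in undifferentiated progenitors. It was well above background on 4 of 4 arrays of primary hepatocytes and 3 of 4 of the hepatocyte condition, and on 0 of the 9 arrays of the other 3 groups. Where a group is not above background, the fold is taken against the lowest signal well above background on its arrays. The adjusted p belongs to the difference without this floor. Gys2 was at least 9495-fold higher in primary hepatocytes than in undifferentiated progenitors (adjusted p = 8.53e-08). In the hepatocyte condition it was 4.5-fold higher against the floor of undifferentiated progenitors (adjusted p = 0.0313), which is not a strict bound. Array 2 of the hepatocyte condition was not above background and lay within their range, so these groups overlapped. The other Gys2 probe (chr6:142371915-142371974) stood at -4.13, -8.94, -6.09 and -8.93 in the hepatocyte condition, and its difference of 2.0 ± 0.88 (SE) from undifferentiated progenitors did not pass (adjusted p = 0.147 over 32305 probes).

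Ppargc1a encodes PGC-1α, a coactivator that fasting induces in the liver (probe at chr5:51848928-51848987, mm9, minus strand). Its level was 0.48, -0.41, -0.53 and -0.12 in the hepatocyte condition, -2.80, -0.07 and -2.04 under the cholangiocyte condition, 0.04, -0.26, -0.05 and 0.07 in primary hepatocytes, -2.05 and -3.76 in primary cholangiocytes and -0.39, 0.67, -0.15 and -1.60 in undifferentiated progenitors. The hepatocyte condition, primary hepatocytes and undifferentiated progenitors overlapped, and primary cholangiocytes lay below all 3. The hepatocyte condition differed from primary hepatocytes by -0.10 ± 0.57 (SE; adjusted p = 0.893) and from undifferentiated progenitors by 0.22 ± 0.57 (SE; adjusted p = 0.866). The other Ppargc1a probe gave 0.06 ± 0.66 (SE; adjusted p = 0.947) and 0.33 ± 0.66 (SE; adjusted p = 0.81).

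**Figure D1:**
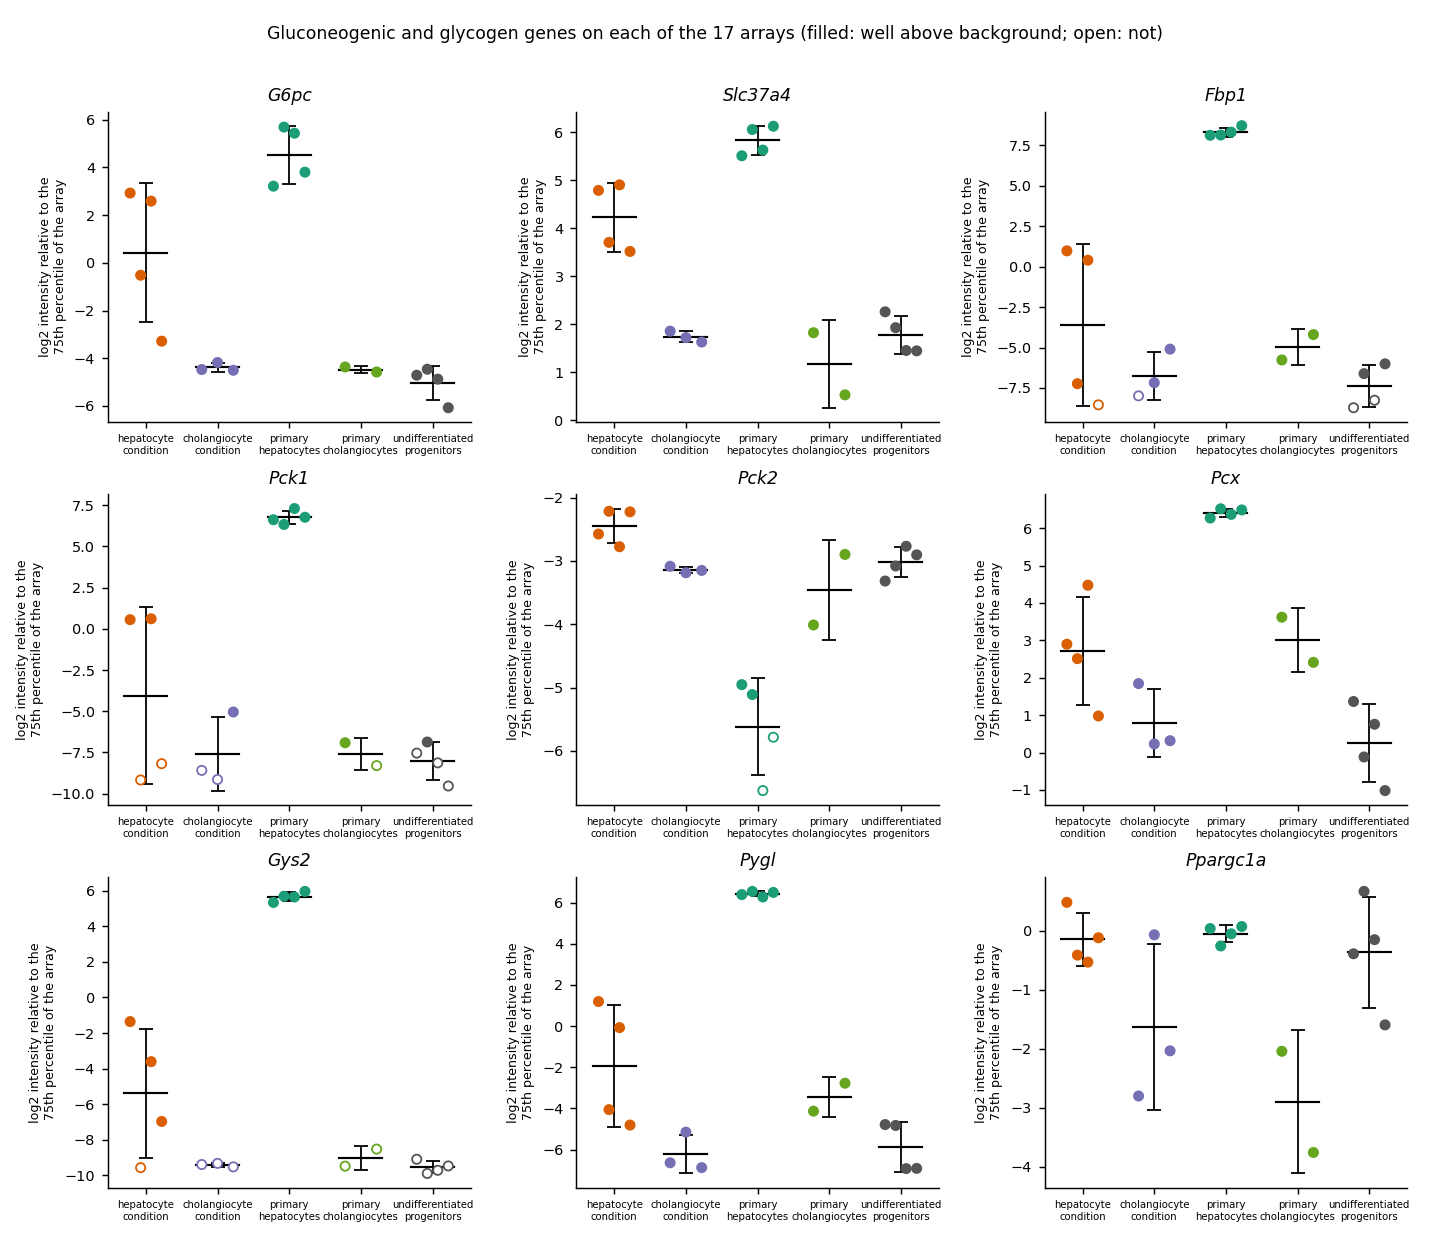
Level of each of the 9 genes (log2 scale, 0 at the array's 75th percentile) on each of the 17 arrays, by group; filled points were well above background, open points were not, and bars give the mean ± SD. Arrays of the hepatocyte condition spread from -9.17 to 0.61 for Pck1 and from 3.52 to 4.90 for Slc37a4.

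How close the hepatocyte condition came to primary hepatocytes was asked first of the whole set. Of the set, 7 genes were lower and 1 gene was higher in the hepatocyte condition, so that 8 of the 9 genes passed, against 59.7% of all genes tested in this comparison, 33.7% lower and 26% higher. Of all calls 43.6% were higher, a share of 51.9% with quantile scaling and 27.8% with the normexp background correction, and 8 genes of the set were called under both. The 7 lower genes were G6pc, Slc37a4, Fbp1, Pck1, Pcx, Gys2 and Pygl, with differences between -1.60 (Slc37a4) and -11.93 (Fbp1), and Pck2 was the higher gene. Fbp1 averaged -3.60 ± 4.99 in the hepatocyte condition and 8.33 ± 0.28 in primary hepatocytes (SD, n = 4 each), a difference of -11.93 ± 1.76 (SE; adjusted p = 4.63e-05). The difference was -10.80 ± 1.91 (SE) for Pck1 and -11.04 ± 1.21 (SE) for Gys2, with adjusted p of 0.000239 and 2.77e-06. The median difference of the 9 genes was -4.11, against -0.33 over all genes tested. On the 3 slides that held both groups, G6pc differed by -6.21, -7.08 and -0.63 and Slc37a4 by -2.35, -2.61 and -0.61, so that the slide with array 3 of the hepatocyte condition had the smallest differences. All 8 calls passed with slide as a block, with adjusted p of 0.00752 or less.

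Which of the genes rose on differentiation towards hepatocytes was asked against the undifferentiated progenitors. Of the 9 genes 5 passed, all higher in the hepatocyte condition (G6pc, Slc37a4, Pcx, Pygl and Gys2), against 15.3% of all genes in either direction and 7.63% higher. With median scaling of the arrays the share of all genes called higher was 4.28%, and the count of the 9 genes was the same. No gene of the set fell. The groups did not overlap for 2 genes, G6pc and Slc37a4, against 9.61% of all genes higher without overlap. Within the 3 slides that held both groups G6pc differed by 3.94, 1.43 and 7.80 and Slc37a4 by 1.78, 1.26 and 3.33, positive on each. Pygl differed by 0.77, -0.02 and 8.11, Gys2 by 0.32, 2.13 and 8.37, and Pcx by 2.63, -0.39 and 2.14, so that array 1 of the hepatocyte condition, on the slide given last, had the largest values for Pygl and Gys2. With slide as a block G6pc (5.36, adjusted p = 0.0164) and Slc37a4 (2.40, adjusted p = 0.00624) passed, and Pcx (2.22, adjusted p = 0.0807), Gys2 (4.0, adjusted p = 0.0695) and Pygl (3.45, adjusted p = 0.0942) did not. The count of 5 was 2 without array 3 of the hepatocyte condition or without array 4 of undifferentiated progenitors, and 3 without array 1 of the hepatocyte condition or without array 2 or 3 of undifferentiated progenitors; G6pc and Slc37a4 passed each time.

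**Figure D2:**
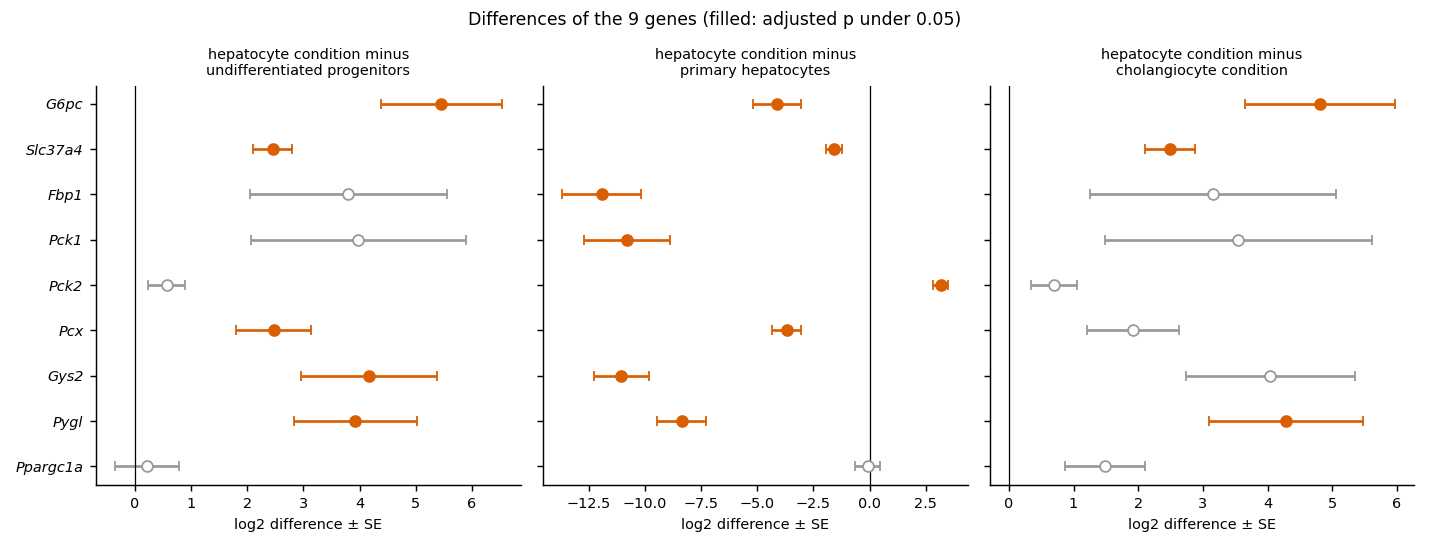
Log2 difference ± SE of each of the 9 genes between the hepatocyte condition and, from left to right, undifferentiated progenitors, primary hepatocytes and the cholangiocyte condition; filled orange points had an adjusted p under 0.05. G6pc and Slc37a4 lie above 0 in the left and right panels and below 0 in the middle one, and Pck2 is the only filled point above 0 in the middle panel.

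The position of each array between undifferentiated progenitors (0%) and primary hepatocytes (100%) was expressed as a percent of the log2 gap between the group means, as a description with no test. Slc37a4 lay at 74.3%, 47.7%, 77.2% and 43% of its gap on arrays 1 to 4 of the hepatocyte condition, and G6pc at 83.2%, 47.2%, 79.6% and 18.3%. Fbp1 lay at 53.3%, 1.05%, 49.6% and -7.26%, and Pck1 at 58%, -7.79%, 58.4% and -1.11%. The mean position was 60.5% for Slc37a4, 57.1% for G6pc, 40% for Pcx, 31.9% for Pygl, 26.9% for Pck1 and 24.2% for Fbp1. The gaps differ in width, from 4.05 for Slc37a4 to 15.73 for Fbp1, so this order is not that of the rise itself. In log2 units the mean rise was 2.45 for Slc37a4, 2.47 for Pcx, 3.80 for Fbp1, 3.92 for Pygl, 3.97 for Pck1 and 5.46 for G6pc. The rises of Fbp1 and Pck1 did not pass. On arrays 1 and 3 each of these genes had covered some of the gap. On arrays 2 and 4 the transporter and G6pc lay at a larger percent of their gaps than Fbp1 and Pck1. Pck1 was well above background on 1 and Fbp1 on 2 of the 4 undifferentiated arrays, which limits where their lower end lies. Gys2 was well above background on 0 of 4, so its lower end is not a measured level, its mean of 27.4% depends on that floor and it was given no place in the order.

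**Figure D3:**
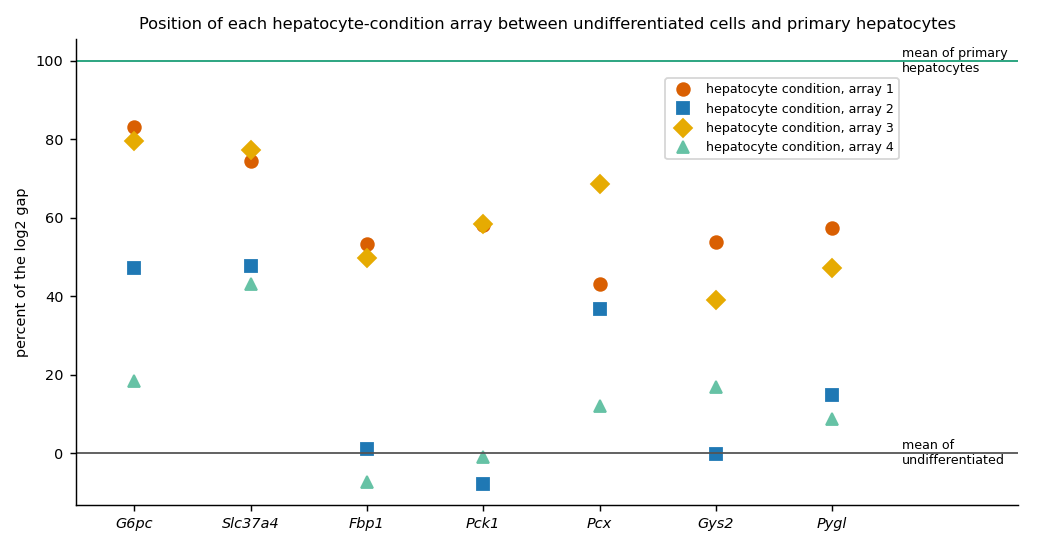
Position of each array of the hepatocyte condition between the mean of undifferentiated progenitors (0%) and the mean of primary hepatocytes (100%), in percent of the log2 gap, for the 7 genes higher in primary hepatocytes. Arrays 1 and 3 lie at 39% or more for every gene, and arrays 2 and 4 lie near 0% for Fbp1 and Pck1. For Gys2 the 0% line is a signal not above background on any undifferentiated array.

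Both differentiation conditions were also set against each other. The genes G6pc (4.81 ± 1.16, SE; adjusted p = 0.0121), Slc37a4 (2.49 ± 0.38, SE; adjusted p = 0.000708) and Pygl (4.29 ± 1.19, SE; adjusted p = 0.0252) were higher in the hepatocyte condition than in the cholangiocyte condition, which is 3 of 9 genes, against 6.99% of all genes higher and 15.4% in either direction. Gys2, 3.77-fold higher against the floor of the cholangiocyte condition, had an adjusted p of 0.0515 without the floor, and the groups overlapped. Over 32305 probes the adjusted p was 0.0495 for this Gys2 probe and 0.451 for the other (1.24 ± 0.95, SE). Pcx (1.92 ± 0.71, SE) had an adjusted p of 0.0894. On the 3 slides that held both conditions G6pc differed by 3.98, 6.76 and 7.40 and Pygl by 2.82, 5.08 and 7.83. The G6pc call was lost with only the compared groups in the fit (adjusted p = 0.0897). The Pygl call was lost without array 1 (adjusted p = 0.0542) or array 3 (adjusted p = 0.0695) of the hepatocyte condition and without array 1 (adjusted p = 0.0836) or array 3 (adjusted p = 0.0852) of the cholangiocyte condition. Without array 4 of the hepatocyte condition 5 genes passed, with Pcx and Gys2 added.

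Differentiation towards cholangiocytes brought no gene of the set past the threshold. None of the 9 passed between the cholangiocyte condition and undifferentiated progenitors by limma, where 1.38% of all genes passed, and none had an unadjusted p under 0.05. Ppargc1a had the smallest unadjusted p (0.0587), with a difference of -1.27 ± 0.62 (SE). Same-numbered arrays of these groups deviated together. The array number was also used as a replicate block over all groups of the fit. With this block 222 of all genes passed (358 without it) and 0 of the 9, with Ppargc1a at -1.45 (adjusted p = 0.381). As the block also took in arrays of the other groups, it was not a paired test of the cholangiocyte condition and undifferentiated progenitors alone. Within the pairs numbered 1, 2 and 3 Ppargc1a differed by -2.41, -0.74 and -1.89, and G6pc by 0.24, 0.28 and 0.37. These genes alone of the set had 1 sign in all 3 pairs. None of the 9 passed between the cholangiocyte condition and primary cholangiocytes either, against 19.6% of all genes, and 1 of the 9, Pcx, had an unadjusted p under 0.05. Pcx averaged 0.80 ± 0.91 (SD, n = 3) in the cholangiocyte condition and 3.02 ± 0.85 (SD, n = 2) in primary cholangiocytes, a difference of -2.22 ± 0.85 (SE; adjusted p = 0.0866). Pcx and Pygl were lower in every array of the cholangiocyte condition than in both primary arrays, as were 15.9% of all genes.

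The primary cell types differed in all 9 genes, and 49.6% of all genes passed in that comparison, 27.9% higher and 21.7% lower. Of all calls 56.3% were higher, a share of 46.5% with quantile scaling and 74.9% with normexp. In primary hepatocytes 8 genes were higher than in primary cholangiocytes and Pck2 was lower (-2.16 ± 0.40, SE; adjusted p = 0.000489). With the normexp background correction the Pck2 difference was -0.06 (adjusted p = 0.849). Gys2 was at least 10805-fold higher in primary hepatocytes (adjusted p = 1.66e-06), G6pc was higher by 9.0 ± 1.31 (SE; adjusted p = 5.47e-05) and Slc37a4 by 4.65 ± 0.43 (SE; adjusted p = 7.12e-07). Ppargc1a was 2.85 ± 0.70 (SE; adjusted p = 0.00368) higher, a call lost without array 4 of primary cholangiocytes (1.99, adjusted p = 0.0792). Against undifferentiated progenitors, 7 genes were higher in primary hepatocytes and Pck2 was lower, 8 of 9 against 64.2% of all genes (37.6% higher, 26.6% lower), and the gene that did not pass was Ppargc1a (0.32 ± 0.57, SE; adjusted p = 0.64). The Pck2 difference there was -2.60, and it lay between -3.11 and -0.48 under the alternative runs, with limma adjusted p of 0.0422 or less. These comparisons and those of the hepatocyte condition share arrays of primary hepatocytes or of undifferentiated progenitors.

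Primary cholangiocytes differed from undifferentiated progenitors in 2 of the 9 genes, against 19.1% of all genes (8.51% higher, 10.5% lower). Pcx was higher by 2.77 ± 0.81 (SE; adjusted p = 0.0278) and Ppargc1a was lower by a log2 difference of -2.54 ± 0.70 (SE; adjusted p = 0.0205). The other Ppargc1a probe gave -2.74 ± 0.81 (SE; adjusted p = 0.0287). With 2 arrays of primary cholangiocytes these calls were not stable: without array 3 of that group Pcx was not called (2.17, adjusted p = 0.215), and without array 4 Ppargc1a was not (-1.68, adjusted p = 0.219). Pcx was also not called without array 2 (adjusted p = 0.0575) or array 4 (adjusted p = 0.0655) of undifferentiated progenitors, and neither gene passed with slide as a block (adjusted p of 0.102 for Pcx and 0.0502 for Ppargc1a).

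Whether the distance from primary cells differed between the lineages was tested as the difference between the hepatocyte condition and primary hepatocytes minus that between the cholangiocyte condition and primary cholangiocytes. Of the 9 genes 6 passed, against 37.7% of all genes (15.6% higher, 22.2% lower). Pck1, Fbp1, Gys2, Pygl and Slc37a4 had negative values, as their differences from primary cells were more negative in the hepatocyte lineage, and Pck2 had a positive one. For Slc37a4, well above background on all 17 arrays, the value was -2.16 ± 0.57 (SE; adjusted p = 0.00878), and for G6pc, which did not pass, it was -4.19 ± 1.75 (SE; adjusted p = 0.0738). Gys2 was not above background on any array of the cholangiocyte lineage, so its value rests on a measured difference in the hepatocyte lineage alone. Pck1 was well above background on 1 of 3 and 1 of 2 arrays of that lineage, where its difference was 0.01 ± 2.47 (SE). Its value therefore restates the -10.80 of the hepatocyte lineage.

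Other genes of the pathway were described in 3 lists: 28 partners of glycogen and glucose handling, 17 genes of substrate supply and 22 regulators, all tested. Between the hepatocyte condition and undifferentiated progenitors 3 partners were higher and 2 lower, and their median difference was 0.31. These 5 of 28 genes are close to the 15.3% of all genes that passed, 7.63% higher. By name, the higher partners were Ppp1r3c (4.55 ± 1.27, SE; adjusted p = 0.0259), which targets protein phosphatase 1 to glycogen, the branching enzyme Gbe1 (1.68 ± 0.35, SE; adjusted p = 0.00574) and the phosphorylase kinase subunit Phkg1 (1.19 ± 0.26, SE; adjusted p = 0.00696). Phka2, the liver alpha subunit of that kinase, was lower by a log2 difference of -1.24, and glycogenin, the primer of glycogen encoded by Gyg, by -0.86. Of the regulators 7 were higher and 0 lower, with a median of 0.56 against 0.08 over all genes, of which 7.63% were higher. They included the glucocorticoid-induced factor Klf15 (3.06 ± 0.63, SE; adjusted p = 0.00517), the Akt-binding pseudokinase Trib3 (2.87 ± 0.58, SE; adjusted p = 0.00442), the fatty acid receptor Ppara (2.45 ± 0.56, SE; adjusted p = 0.0088) and Foxo1 (1.25 ± 0.22, SE; adjusted p = 0.00167). Klf15 was 1.23 ± 0.29 in the hepatocyte condition, -5.47 ± 1.59 in the cholangiocyte condition and -1.82 ± 0.96 in undifferentiated progenitors (SD, n = 4, 3 and 4), and it was the regulator that passed, as lower, between the cholangiocyte condition and undifferentiated progenitors (-3.65 ± 0.68, SE; adjusted p = 0.018; -3.68, adjusted p = 0.0407, with the replicate block). In substrate supply 2 genes were higher, the alanine aminotransferase Gpt2 (1.15) and the pyruvate carrier subunit Mpc2 (0.68), and 2 were lower, Gpd2 (-0.93) and Mdh2 (-0.44), which is 4 of 17 against 15.3% of all genes. Sds, serine dehydratase, did not pass (4.07 ± 1.43, SE; adjusted p = 0.0731), nor did Igfbp1 (4.81 ± 3.11, SE; adjusted p = 0.361).

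Against primary hepatocytes the lists were mostly lower in the hepatocyte condition: 15 partners, 15 substrate genes and 13 regulators were lower, and 6, 1 and 3 were higher, of 28, 17 and 22. Of all genes 33.7% were lower and 26% higher. Among the higher partners was Pgm2, a phosphoglucomutase (2.87). The lower partners included Ppp1r3g (-7.63), another glycogen-targeting subunit, and Slc2a2 (-6.79), the hepatocyte glucose transporter. Tat, tyrosine aminotransferase (-9.16), and the glycerol 3-phosphate dehydrogenase Gpd1 (-6.60) led the substrate genes, and the glucagon receptor Gcgr (-6.60) and Nr0b2 (-6.73) the regulators. Pdk4, a kinase that inhibits pyruvate dehydrogenase, was the substrate gene that was higher (4.16 ± 0.64, SE; adjusted p = 6.81e-05).

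**Figure D4:**
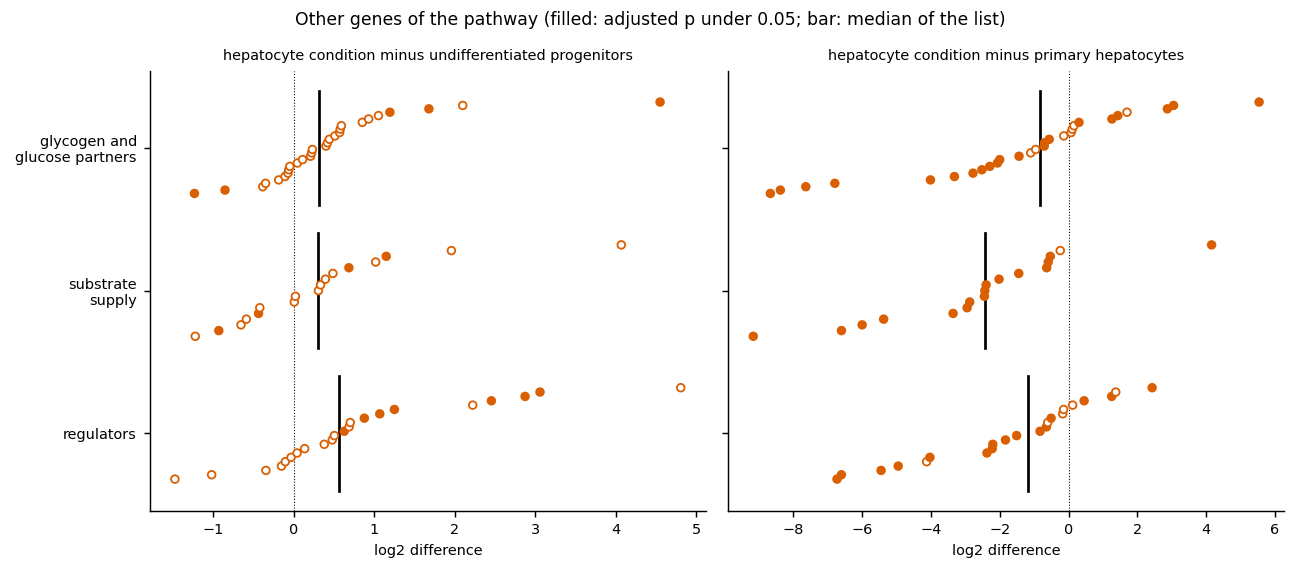
Log2 difference of each gene of the 3 lists between the hepatocyte condition and undifferentiated progenitors (left) and primary hepatocytes (right); filled points had an adjusted p under 0.05 and vertical bars mark the median of each list. The medians are 0.31, 0.31 and 0.56 on the left and -0.83, -2.43 and -1.17 on the right.

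Where the liver and another tissue use different isozymes, the forms were compared within the same pair of groups, each gene against itself. The glycogen synthase Gys1, the form outside the liver, was higher in the hepatocyte condition (0.67 ± 0.47) than in primary hepatocytes (-2.38 ± 0.27; SD, n = 4 each) by 3.05 ± 0.25 (SE; adjusted p = 1.31e-07), while Gys2 was lower by a log2 difference of -11.04. The brain form of glycogen phosphorylase, Pygb, was higher by 5.54 ± 0.34 (SE; adjusted p = 8.04e-09) and Pygl lower by a log2 difference of -8.36. G6pc3, the widely expressed glucose 6-phosphatase, was higher by 1.43 ± 0.23 (SE; adjusted p = 9.63e-05). G6pc2, the form of pancreatic islets, was lower: it averaged -8.95 ± 0.56 in the hepatocyte condition, where 0 of 4 arrays were well above background, and -5.63 ± 1.22 in primary hepatocytes (2 of 4 arrays; SD, n = 4 each). Against the floor it was 3.51-fold lower in the hepatocyte condition (adjusted p = 6.29e-05 without the floor). This is not a strict bound, as not every array of primary hepatocytes was well above background. The muscle forms Pygm (-1.1 ± 0.59, SE; adjusted p = 0.123) and Fbp2 (-0.95 ± 0.68, SE; adjusted p = 0.242) did not pass. Against undifferentiated progenitors Gys1 (-0.06 ± 0.25), Pygb (0.57 ± 0.34) and G6pc3 (0.11 ± 0.23; all SE) did not pass either, with adjusted p of 0.913, 0.321 and 0.831. The pairs of isozymes were chosen after their values were seen.

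**Figure D5:**
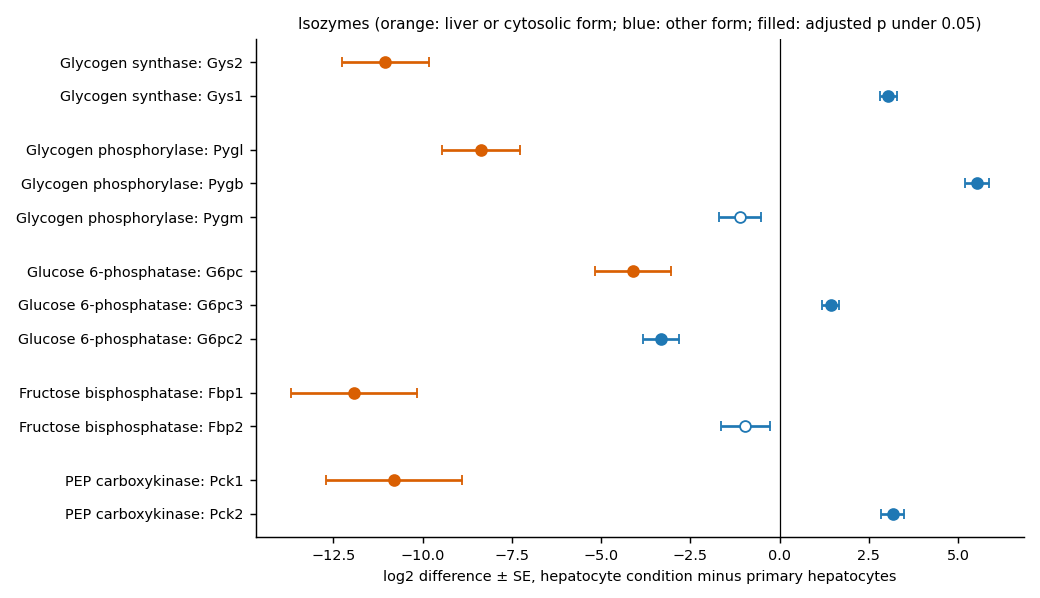
Log2 difference ± SE between the hepatocyte condition and primary hepatocytes for isozymes of 5 enzymes; orange marks the liver or cytosolic form and blue the other forms, and filled points had an adjusted p under 0.05. The 5 orange points lie between -11.93 and -4.11, and the filled blue points lie between 1.43 and 5.54 except G6pc2, at -3.32, which was not above background in the hepatocyte condition.

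The genes whose levels ran most like each member were taken over the 17 arrays, which fall into groups, so the correlations mostly describe differences between groups. For Gys2 the nearest was the complement gene C8b (Pearson r = 0.995), for Pygl the methionine adenosyltransferase gene Mat1a (0.992), for Slc37a4 Pzp (0.989), for Fbp1 Bbox1 (0.989) and for Pck1 the peroxisomal oxidase gene Hao1 (0.986). G6pc was nearest to Serpina3k (0.975), Pcx to Shpk (0.974) and Pck2 to Ppp3cc (0.967). Ppargc1a had its nearest gene, the bile acid receptor gene Nr1h4, at 0.835, the lowest of the 9.

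The authors' deposited table gives a signed fold change for the same probes. In the authors' deposited table G6pc was 37.9-fold and Slc37a4 5.88-fold higher in the hepatocyte condition than in undifferentiated progenitors, with false discovery rates of 0.32 and 0.1 percent. In the same deposited table Pck1 and Fbp1 had rates of 8.29 and 9.53 percent there.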

How the data were processed

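Each deposited intensity is the processed Cy3 signal of Agilent Feature Extraction 10.5.1.1, per the file headers (version 9.53 per the submitters' processing notes), after background subtraction and without scaling between arrays. Total RNA was amplified with WT-Ovation Pico and labelled with Cy3, per the labels. The authors also deposited a score per probe, a signed fold change, with a false discovery rate in percent; the normalization behind it is not given in the sources used here. From the intensities, 135 probes whose spots were all outliers on an array were left out, log2 of the 75th percentile of the array was subtracted, and probes well above background on at least 2 of 17 arrays were kept. Group means were fitted with limma 3.58.1 in R 4.3.3 (lmFit, eBayes) over 25977 genes, with Benjamini-Hochberg adjustment and a two-sided threshold of 0.05. For each gene the groups shared an estimate of the spread. The data.table package (version 1.17.8) and matplotlib 3.10.9 were used. The fit was also run on simulated arrays that had the same spread in every group. The real groups differed in spread for several of the 9 genes, so that run does not check the fit under unequal spread. No 2 arrays were identical. Deviations of same-numbered arrays from their group means correlated at 0.281 to 0.385 in the 3 pairs of the cholangiocyte condition and undifferentiated progenitors, which were taken as paired by that correlation and not by a label. No other pair of groups had every r over 0.1 (-0.231 to 0.519 over all 28 pairs of arrays). Probe positions are those of the files (mm9); whether a probe lies in an exon or a UTR was not looked up. The 9 genes, the lists and the motifs were chosen with earlier results of these data known; all 9 genes are named, and of each list up to 4 genes per direction that passed and up to 2 that did not. Some genes of the lists that this rule names are not reported here. Alternatives were normexp (offset 50), quantile and median scaling, other filters, the mean of probes, slide and replicate blocks, fewer groups and leaving out each array. The replicate block was the array number, fitted over all groups and not over the paired groups alone. The number of arrays limits the precision.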

Additional observations from a re-analysis of the deposited data

Results flagged for a closer look

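For 6 of the 9 genes the gap between differentiated and primary cells was not the same in the hepatocyte lineage as in the cholangiocyte lineage, by a test of the difference of the 2 differences within the limma model, in which 37.7% of all genes passed. The difference of differences was -10.82 ± 3.12 (SE) for Pck1 (adjusted p = 0.0142), -10.16 ± 2.87 for Fbp1 (adjusted p = 0.0125), -10.63 ± 1.98 for Gys2 (adjusted p = 0.000759), -5.59 ± 1.79 for Pygl (adjusted p = 0.0242) and -2.16 ± 0.57 for Slc37a4 (adjusted p = 0.00878), so that the difference from primary cells was more negative in the hepatocyte lineage. Gys2 was well above background on 0 of 3 arrays of the cholangiocyte condition and 0 of 2 of primary cholangiocytes, so the difference subtracted for it lies between signals not above background. Pck1 was so on 1 of 3 and 1 of 2 of these arrays and Fbp1 on 2 of 3 and 2 of 2. The difference subtracted was 0.01 ± 2.47 (SE) for Pck1 and -1.77 ± 2.27 (SE) for Fbp1. None of the 9 genes passed in the cholangiocyte lineage, so the Pck1 value restates its difference in the hepatocyte lineage (-10.80). For Pck2 it was 2.86 ± 0.54 (adjusted p = 0.000853), and 0.46 (adjusted p = 0.235) with the normexp background correction. G6pc (-4.19 ± 1.75, adjusted p = 0.0738), Pcx (-1.48 ± 1.08, adjusted p = 0.296) and Ppargc1a (-1.36 ± 0.93, adjusted p = 0.264) did not pass. The 2 arrays of primary cholangiocytes bear on these calls: without array 4 Pck1 (adjusted p = 0.0554) and Slc37a4 (adjusted p = 0.07) were not called, and without array 3 Fbp1 (adjusted p = 0.0522) and Pygl (adjusted p = 0.0966) were not. Pygl was also not called without array 2 of the cholangiocyte condition (adjusted p = 0.0575).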

How the results depend on the processing

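The count of genes called between the hepatocyte condition and primary hepatocytes was 8 under each alternative run, and so was that between primary hepatocytes and undifferentiated progenitors. Against undifferentiated progenitors 2 genes passed with slide as a block and 2 with only the compared groups (5 in the report; 2 to 6 on leaving out each array). Between the conditions 1, Slc37a4, passed with only the compared groups, and G6pc did not (3 in the report; 2 to 5). Between primary cholangiocytes and undifferentiated progenitors 0 passed with slide as a block and 0 with only the compared groups (2 in the report; 1 to 2). Between the cholangiocyte condition and primary cholangiocytes 1 gene, Pcx, passed as lower with normexp (-2.18, adjusted p = 0.0482) and 1, again Pcx, with the replicate block (-2.76, adjusted p = 0.0274; 0 in the report; 0 to 0). Between the primary cell types 8 to 9 passed on leaving out each array, and 4 to 7 in the difference of differences. Outside the cholangiocyte condition against undifferentiated progenitors the array numbers were not taken as pairs, but the replicate block took in all groups. With the replicate block Pygl left the difference of differences (-4.72, adjusted p = 0.0808) and Pcx passed between the conditions (2.23, adjusted p = 0.0285). Gys2 was not called against undifferentiated progenitors with normexp (1.23, adjusted p = 0.116) or the mean of its probes (3.09, adjusted p = 0.0529).

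Signs turned for differences that did not pass in the report or under the alternative, with the cause not tested. For the hepatocyte condition against primary hepatocytes they were Ppargc1a 0.092 with median scaling, and without 1 array Ppargc1a -0.30 to 0.033. For the cholangiocyte condition against primary cholangiocytes they were Fbp1 0.083 and Gys2 0.75 with normexp, Gys2 0.19 with the mean of probes, G6pc -0.89 and Pck1 -0.62 with slide as a block, G6pc -0.84 and Pck1 -0.39 with the replicate block, and without 1 array G6pc -0.020 to 0.19, Pck1 -1.26 to 0.79, Pck2 -0.24 to 0.87, Gys2 -0.89 to 0.070 and Slc37a4 -0.088 to 1.21. For the hepatocyte condition against undifferentiated progenitors they were Ppargc1a -0.038 with median scaling, and without 1 array Ppargc1a -0.19 to 0.57. For the cholangiocyte condition against undifferentiated progenitors they were Pck2 0.027 and Pygl 0.13 with normexp, Gys2 -0.020 with quantile scaling, Gys2 -0.065 with median scaling, Pck1 -0.26, Fbp1 -0.080 and Gys2 -0.20 with slide as a block, Pck1 -0.092 with the replicate block, and without 1 array Slc37a4 -0.14 to 0.13, Pck1 -0.85 to 1.2 and Fbp1 -0.18 to 1.26. For primary hepatocytes against undifferentiated progenitors they were Ppargc1a -0.13 with median scaling, and without 1 array Ppargc1a -0.092 to 0.66. For primary cholangiocytes against undifferentiated progenitors they were G6pc -0.063, Pck1 -0.36 and Gys2 -0.45 with normexp, and without 1 array Pck1 -0.28 to 1.11, Pck2 -0.99 to 0.12 and Slc37a4 -1.24 to 0.052.

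Against undifferentiated progenitors, the share of all calls that were higher was 28.6% with median scaling (49.9% in the report) for the hepatocyte condition, 37.2% with median and 43.3% with quantile scaling (56.7%) for the cholangiocyte condition, 45% and 47% (58.5%) for primary hepatocytes and 32.9% with median scaling (44.7%) for primary cholangiocytes. For the difference of differences it was 52.4% with quantile scaling (41.2%). The median difference of all genes moved with scaling, for the hepatocyte condition to -0.18 (median scaling) against undifferentiated progenitors and to -0.01 (quantile scaling) against primary hepatocytes, with 5 and 8 genes of the set still called. Counts over all genes moved by more than 1.5 times for the cholangiocyte condition against primary cholangiocytes (1071 with only the compared groups, 5090 in the report) and against undifferentiated progenitors (104 with only the compared groups, 181 with slide as a block, 222 with the replicate block and 129 to 401 without 1 array, 358 in the report), for primary cholangiocytes against undifferentiated progenitors (1625 with only the compared groups, 4949 in the report) and for the difference of differences (16993 with normexp, 9804 in the report). Probes of Pck1, Fbp1, Gys2 and Pck2 not above background in a group limit those differences.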
